A study of Arabidopsis thaliana with 17 samples.

Results

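Open chromatin of the Arabidopsis thaliana seed coat was compared between 4 and 7 days past anthesis (DPA), through peaks of DNase I cutting. The 3 seed coat lists with the depth mark 6.8M, a 4 DPA library, a pool of 2 other 4 DPA libraries and a pool of 2 libraries of 7 DPA, merged into 36306 sites, against 49442 sites over all 11 lists of the series with that mark. A site was called 4 DPA-only if both 4 DPA lists and the 4 DPA list without a mark held a peak there and neither 7 DPA list did, and 7 DPA-only in the opposite case. Of the 36306 sites, 4127 were 4 DPA-only (11.4%) and 703 were 7 DPA-only (1.94%), 4830 stage sites in all. A further 11601 sites had a peak in all 5 seed coat lists. Over these shared sites each list was ranked by its peak score, from 0 for the lowest to 100 for the highest. A shared site was called higher at a stage if the 7 DPA pool and both 4 DPA lists at 6.8M differed by at least 25 percentile points and the lists without a mark moved the same way. By that rule 915 sites were higher at 4 DPA (7.89%) and 1035 were higher at 7 DPA (8.92%).

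The study profiled root, seed coat and flower nuclei, and 6 of its 17 samples are seed coat. All 6 came from the same INTACT line, GL2:NTF::ACT2:birA, in which the GL2 promoter drives a nuclear envelope tag, the ACT2 promoter drives the biotin ligase birA, and tagged nuclei are captured by their biotin. Col-0 is given as the background for 3 of the 6. Whole siliques were harvested from soil-grown plants in long days, so the seed coat was selected by the promoter and not by dissection. The 4 DPA samples are replicates 1 and 2, a single-end and a paired-end run of the same library with identical deposited lists and counted here as 1, and replicates 3 and 4, deposited as a pool. The 7 DPA samples are replicates 1 and 2, deposited as a pool, with a list of its own without a mark for replicate 1. With a single list on the 7 DPA side at 6.8M there is no replicate error for that stage and no test. The difference between the 2 lists of 4 DPA, which share no library, is the only measure of spread.

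In the Arabidopsis seed coat, the outer epidermal layer fills with starch and then secretes pectin-rich mucilage into a space around a central column of cytoplasm, while the innermost layer deposits proanthocyanidins that later oxidise to brown pigment. Both programmes depend on a complex of MYB, bHLH and WD40 proteins, which acts with GL2 and TTG2 in the outer layer. Enzymes then build and trim the mucilage polymers before release at imbibition. DNase I cuts where nucleosomes leave DNA exposed, so a peak marks accessible DNA and not expression.

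The stretches below lie in shared sites whose rank changed between the stages. They were chosen after their values were seen, as examples of the gene groups and of the strongest changes described here. They are printed from the TAIR10.1 genome of RefSeq in the direction of the gene they are assigned to, without any transcribed base, with motif letters in capitals. The first group ranked higher at 7 DPA. TT10 is chr5:19492745-19492890 on the minus strand, the upstream side of a site that runs across the transcription start site (TSS), with 2 W-box cores (TTGAC). TT8 is chr4:6181081-6181270 on the plus strand, with a MYB core (CNGTTA or CNGTTG) and an L1 box (TAAATGCA or TAAATGTA). AT3G10320 is chr3:3197521-3197810 on the minus strand, with 1 AC element (ACCNAAC or ACCTACC). AT5G15740 is chr5:5138681-5138870 on the minus strand and held none of the 19 motifs searched.
TT10: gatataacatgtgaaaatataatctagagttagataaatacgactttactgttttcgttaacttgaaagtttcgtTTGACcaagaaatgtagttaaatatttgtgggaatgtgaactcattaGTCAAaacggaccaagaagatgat
TT8: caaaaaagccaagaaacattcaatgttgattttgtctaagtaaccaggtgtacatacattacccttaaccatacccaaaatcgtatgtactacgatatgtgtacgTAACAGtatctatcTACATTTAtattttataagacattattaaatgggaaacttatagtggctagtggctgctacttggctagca
AT3G10320: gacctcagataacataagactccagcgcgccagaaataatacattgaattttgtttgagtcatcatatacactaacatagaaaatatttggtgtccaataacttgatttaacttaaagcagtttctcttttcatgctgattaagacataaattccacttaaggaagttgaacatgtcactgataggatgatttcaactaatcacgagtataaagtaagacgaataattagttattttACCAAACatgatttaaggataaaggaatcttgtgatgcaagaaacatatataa
AT5G15740: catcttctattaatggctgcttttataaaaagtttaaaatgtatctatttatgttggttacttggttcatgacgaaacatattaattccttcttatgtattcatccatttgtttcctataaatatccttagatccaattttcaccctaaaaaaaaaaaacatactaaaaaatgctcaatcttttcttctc

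The second group ranked higher at 4 DPA. AT1G72175 is chr1:27160061-27160210 on the plus strand, with 1 G-box (CACGTG) and 2 auxin response elements (TGTCTC). AT1G01260, beside a gene for a bHLH protein, is chr1:108201-108370 on the plus strand, with 2 G-boxes, 1 W-box core and 1 L1 box. WRKY23 is chr2:19408601-19408810 on the minus strand, with 2 G-boxes that each overlap an ABRE (ACGTGTC or ACGTGGC), 1 MYB core and 1 dehydration-responsive element core (GCCGAC). ISA1 is chr2:16665181-16665410 on the plus strand, with 1 evening element (AAATATCT) and 1 auxin response element. Motifs were searched on both strands. In the central 150 bp of all sites the shares were 31.9% for the W-box core, 29.5% for the MYB core, 13.2% for the AC element, 9.31% for the G-box, 9.26% for the auxin response element, 8.08% for the ABRE, 2.65% for the L1 box, 2.31% for the evening element and 2.23% for the dehydration-responsive core.
AT1G72175: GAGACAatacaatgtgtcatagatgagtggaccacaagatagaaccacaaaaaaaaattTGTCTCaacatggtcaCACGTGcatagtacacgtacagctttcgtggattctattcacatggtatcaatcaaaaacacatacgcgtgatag
AT1G01260: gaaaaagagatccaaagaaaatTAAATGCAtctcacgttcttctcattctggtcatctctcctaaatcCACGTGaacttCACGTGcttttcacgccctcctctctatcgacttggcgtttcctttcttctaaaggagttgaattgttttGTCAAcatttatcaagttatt
WRKY23: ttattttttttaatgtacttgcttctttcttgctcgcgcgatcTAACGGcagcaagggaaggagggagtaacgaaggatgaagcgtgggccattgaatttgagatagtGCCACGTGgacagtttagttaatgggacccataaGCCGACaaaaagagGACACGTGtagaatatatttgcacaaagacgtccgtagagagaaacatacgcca
ISA1: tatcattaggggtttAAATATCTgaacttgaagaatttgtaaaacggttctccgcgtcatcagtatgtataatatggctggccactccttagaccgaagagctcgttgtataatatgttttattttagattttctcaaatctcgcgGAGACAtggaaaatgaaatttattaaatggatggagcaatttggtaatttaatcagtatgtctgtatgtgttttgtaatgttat

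At the 6.8M mark the 4 DPA library gave 30110 nuclear peaks, the 4 DPA pool 28362 and the 7 DPA pool 27036. Without a mark the 4 DPA library gave 32159 and the 7 DPA library 13643, with depths unknown. The Jaccard index, base pairs shared over base pairs in either list, was 0.525 between the 2 lists of 4 DPA, 0.427 between the 4 DPA library and the 7 DPA pool, and 0.441 between both pools. Rank correlations over the 11601 shared sites followed the same order, at 0.844, 0.595 and 0.651. In these pairs 12.7%, 29.0% and 25.2% of the shared sites differed by 25 points or more. The lists without a mark repeat reads of the marked ones (rank correlation 0.967 at 4 DPA and 0.975 at 7 DPA) and are not independent of them.

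**Figure D1:**
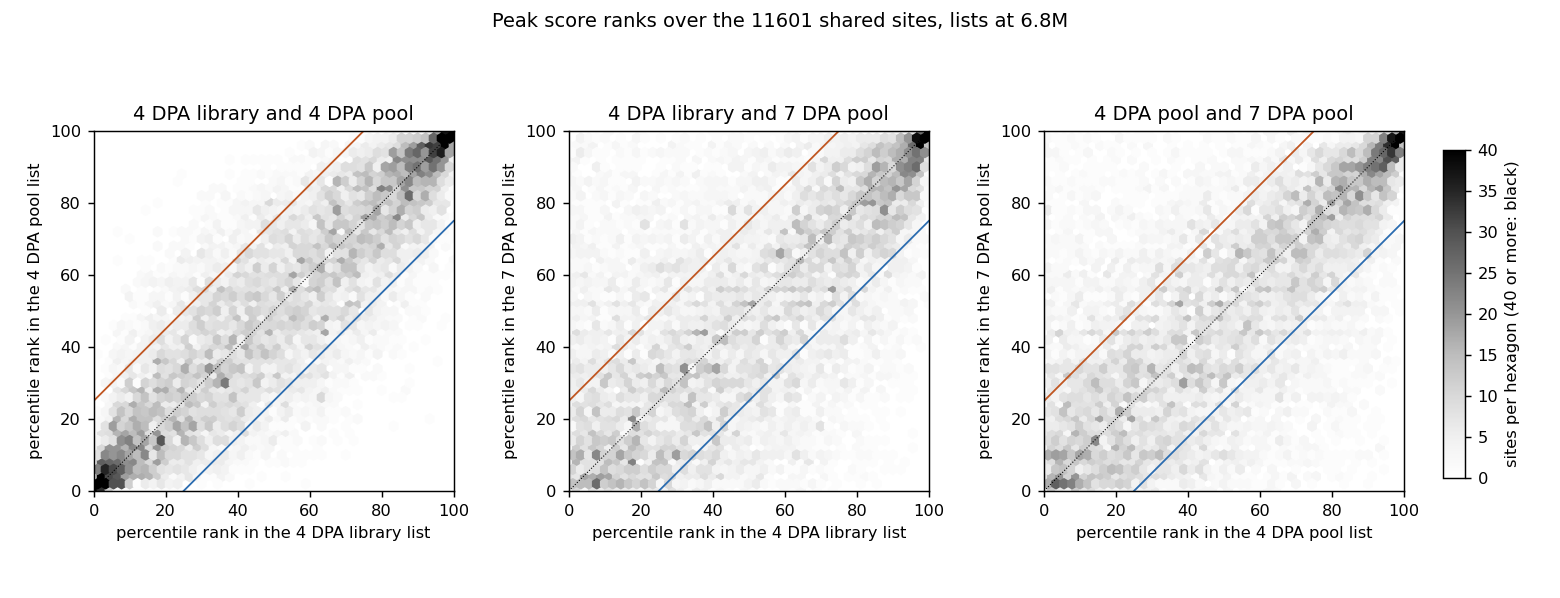
Percentile ranks of the 11601 shared sites in pairs of the seed coat lists at 6.8M, with the number of sites per hexagon in grey and lines at differences of 25 points. The 2 lists of 4 DPA lie closest to the diagonal, with 12.7% of sites beyond the lines, against 29.0% and 25.2% for the pairs of 4 and 7 DPA.

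The unequal numbers of stage sites followed the lengths of the lists without a mark. At 6.8M alone, 4533 sites were 4 DPA-only and 3524 were 7 DPA-only. Of the 3524, 2202 were missing from both lists without a mark, and so were dropped. When the 4 DPA list without a mark was shortened to the length of the 7 DPA one, 662 sites were 4 DPA-only and 781 were 7 DPA-only. The ratio of 4 DPA-only to 7 DPA-only sites was therefore not read as a difference between the stages.

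Genes of mucilage synthesis and release had sites that ranked higher at 7 DPA. Of 26 genes in the list 24 had a site and 19 a shared site. Among the 19, 11 (57.9%) had a site higher at 7 DPA, against 10.7% of all 8844 genes with a shared site, and 0 had a site higher at 4 DPA, against 9.58%. These were 13 of the 36 shared sites of the list (36.1%, against 8.92% of all shared sites). The median rank change from the mean of the 4 DPA lists to the 7 DPA pool was 18.3 points over the 36 sites and -0.99 over all shared sites. The 4 DPA lists differed here too: the median rank difference was 12.6 points from the 4 DPA library to the other list of that stage, and 10.9 points from there to the list of 7 DPA. Set against the 4 DPA pool alone, 13 sites of 11 genes were higher at 7 DPA by 25 points or more and 1 was lower. The rule asked for that margin over both 4 DPA lists, so the 13 called sites pass here by definition. With the comparison rebuilt without the 4 DPA library, 9 genes were higher at 7 DPA and 1 at 4 DPA. Between the 4 DPA lists themselves, 5 sites of 5 genes were higher in the pool and 0 in the library. With a threshold of 35 points, with the best-scoring 50% of each list, or with the 4 DPA list without a mark shortened as above, 6 genes were higher at 7 DPA.

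Among enzymes that act on pectin, MUM2, the beta-galactosidase that trims mucilage pectin so that it can swell, had 3 such sites. The site at its TSS ranked 6.24 in the 4 DPA library, 12.4 in the pool of that stage and 55.4 in the list of 7 DPA. A site in an intron 620 bp downstream of the TSS ranked 20.7, 38.7 and 82.9, and another 1780 bp downstream ranked 7.50, 20.0 and 85.1. All 3 ranked below the middle of the shared sites in both 4 DPA lists and above it in the 7 DPA list. Among all peaks of each list, the site 620 bp downstream was at percentile 57.2 and 68.9 at 4 DPA and 91.8 at 7 DPA. Another shared site of MUM2, 580 bp upstream, ranked 75.4, 57.5 and 77.4, with no shift. BXL1, a xylosidase and arabinofuranosidase that trims arabinan side chains, ranked 7.50, 20.8 and 66.0 at a site in its 5-prime UTR. A second BXL1 site, in an intron, ranked 98.1, 99.5 and 80.2, so the 2 sites of the gene moved in opposite directions.

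The methylesterification of mucilage pectin is set by methylesterases and their inhibitors. PMEI6, an inhibitor needed for mucilage release, ranked 3.59 and 3.11 in the 4 DPA lists and 33.0 in the 7 DPA pool. AT5G49180, annotated as an invertase or pectin methylesterase inhibitor family protein, ranked 45.5, 59.1 and 84.2. FLY1, an E3 ubiquitin ligase of the endomembrane system that affects pectin methylesterification, ranked 40.8, 62.3 and 92.8. Among the shared sites PMEI6 was low in both 4 DPA lists, and AT5G49180 and FLY1 were near the middle there. Among all peaks of those lists, AT5G49180 was at percentile 74.9 and 80.7 and FLY1 at 72.3 and 82.3.

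Sites of genes that build the polymers shifted as well. GAUT11, a galacturonosyltransferase, ranked 1.81, 1.7 and 29.3. CESA5, a cellulose synthase of the mucilage, ranked 25.8, 33.7 and 78.6 in its 5-prime UTR, while a site 1095 bp upstream was 4 DPA-only. AT3G10320, annotated as a glycosyltransferase of family 61, had the stretch printed above, which scored 43 and 66 in the 4 DPA lists and 194 in the 7 DPA pool. Its ranks were 4.70, 21.7 and 97.2, and 3.88 and 95.8 in the 4 and 7 DPA lists without a mark. AT5G15740, annotated as an O-fucosyltransferase, ranked 9.44, 48.1 and 97.3 at the site printed above. Of the 13 sites it was the one where the 2 lists of 4 DPA stood furthest apart. AT2G22900 (a galactosyltransferase family protein) ranked 44.4, 46.2 and 76.8, and AT5G04160 (a nucleotide-sugar transporter family protein) 10.2, 26.3 and 82.9.

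Other members had sites at 7 DPA alone or did not shift. PER36, a peroxidase that loosens the outer wall before mucilage release, had a 7 DPA-only site 220 bp upstream of its TSS, at percentile 86.9 of the 7 DPA lists on average, with the nearest 4 DPA peak 970 bp away. SOS5, an arabinogalactan protein of mucilage adherence, had a 7 DPA-only site at its TSS, but with a 4 DPA peak 50 bp away. RHM2, also called MUM4, makes UDP-rhamnose for the pectin backbone, and its 2 shared sites ranked at 60.3 or higher in every list, as did the site of FEI2, a receptor kinase of the same adherence pathway (97.8, 98.2 and 97.2). CSLA2, a glucomannan synthase, and CESA5 were the members with a 4 DPA-only site. By share of genes with a site, 12.5% of the list had a 7 DPA-only site (3.37% of all genes) and 8.33% a 4 DPA-only site (19.1% of all genes).

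**Figure D2:**
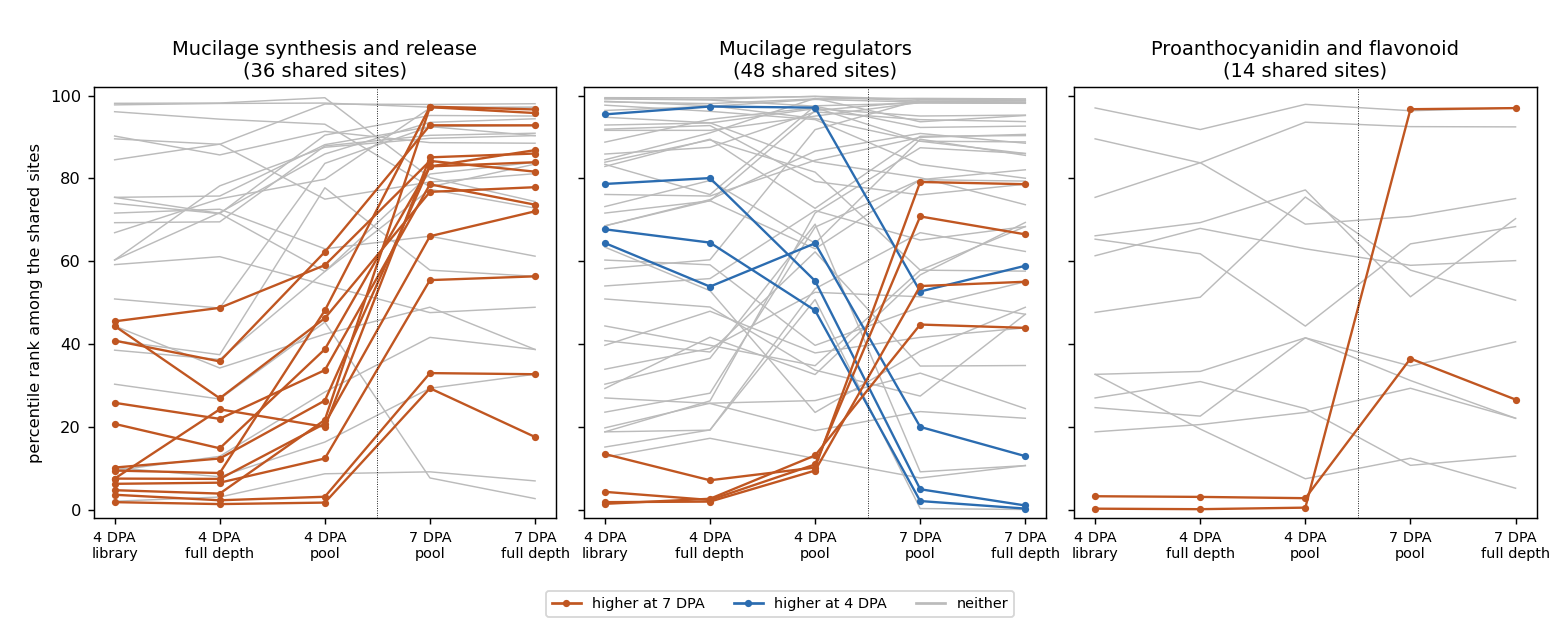
Percentile rank of each shared site of 3 gene lists in the 5 seed coat lists, each line a site, with sites higher at 7 DPA in orange, higher at 4 DPA in blue and the others in grey. In mucilage synthesis and release 13 of 36 sites are orange and 0 are blue, mucilage regulators hold 4 of each, and the highest climb in the proanthocyanidin list is TT10, from 0.483 or less to 96.7.

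Mucilage regulators had shifted shared sites in both directions. Of 21 genes, all with a site and 17 with a shared one, 3 had a site higher at 7 DPA and 3 a site higher at 4 DPA (17.6% each, against 10.7% and 9.58% of all genes). A 7 DPA-only site lay at 4 genes, BLH2, BLH4, MYB61 and STK (19.0%, against 3.37% of all genes), and a 4 DPA-only site at 8 (38.1%, against 19.1%). These genes had 4.76 sites each, against 1.94 over all genes, and by site 4.00% were 7 DPA-only (1.94% of all sites) and 8.00% 4 DPA-only (11.4% of all sites). A 4 DPA peak lay 70 bp from the 7 DPA-only site of STK. A 7 DPA peak lay 10 bp from the 4 DPA-only site of ERF4 and 50 bp from that of NAC2. Toward 7 DPA, TT8, the bHLH protein of the MYB-bHLH-WD40 complex, had 2 sites. The one 706 bp upstream of the TSS, printed above, scored 33, 51 and 75 and ranked 1.81, 9.44 and 54.0. The one at the TSS ranked 1.40, 13.1 and 44.7, so both were among the lowest shared sites at 4 DPA and near the middle at 7 DPA. Neither had a peak in any root or flower list used here. BLH2 and BLH4, a pair of BEL1-like homeodomain proteins that act in mucilage pectin demethylesterification, each had a shared site higher at 7 DPA. BLH2 ranked 13.4, 10.2 and 79.1 at 360 bp upstream, and BLH4 4.30, 10.9 and 70.8 at 1458 bp upstream. Another BLH4 site, 148 bp upstream, was 4 DPA-only, at a mean percentile of 10.9 and 250 bp from the nearest 7 DPA peak.

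Toward 4 DPA, the NAC gene NAM (AT1G52880) had a site 2036 bp upstream that ranked 78.7, 55.2 and 4.93. ERF4, an ethylene response factor with a repressor motif, ranked 67.7, 48.1 and 2.08 at a site 2982 bp downstream of its TSS. AT1G76880, annotated as a homeodomain-like protein, had 2 such sites, at 64.4, 64.3 and 20.0 and at 95.5, 97.1 and 52.7. Both stood lower at 7 DPA than in either 4 DPA list. The GL2 locus, which is also the source of the promoter in the transgene, kept 2 sites at 98.7 or higher in all 3 lists. AP2, KNAT3 and MYB61 each had sites above rank 90 at 7 DPA and no shifted shared site, though MYB61 had the 7 DPA-only site named above.

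In the proanthocyanidin and flavonoid list, 2 of 9 genes with a shared site had one higher at 7 DPA (22.2%, 10.7% of all genes). At 4 DPA 0 had one higher, against 9.58% of all genes. Over the 14 shared sites of the list the median rank change was -1.63 points, and 5 rose in rank by any margin at 7 DPA. TT10, the laccase-like oxidase that browns proanthocyanidins, led all 1035 sites higher at 7 DPA. The site at its TSS (chr5:19492641-19492890) scored 24 in the 4 DPA library, 27 in the pool of that stage and 183 at 7 DPA. Its rank was 0.233, 0.483 and 96.7, and in the lists without a mark 0.112 at 4 DPA and 97 at 7 DPA. It went from the bottom of both 4 DPA lists to near the top of the 7 DPA lists, a change of 96.2 points against a difference of less than a point between the 4 DPA lists. No root or flower list used here held a peak at it. TT10 had 2 more sites at 7 DPA alone, 1371 and 2651 bp upstream, at percentiles 58.9 and 61.7.

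TT2, the MYB protein that directs proanthocyanidin genes, ranked 3.24, 2.77 and 36.5 at its TSS. The flavonoid pathway enzyme genes TT4, F3H and LDOX did not pass the threshold. TT4, chalcone synthase, ranked 65.3, 44.3 and 64.2, F3H, flavanone hydroxylase, 61.3, 63.0 and 59.0, and LDOX, anthocyanidin synthase, 75.4, 69.0 and 70.8 at the site next to its TSS. A TT7 site 2103 bp upstream, beside the gene for flavonoid 3-prime hydroxylase, was at 96.4 or higher in all 3 lists. TT7 also had the list's sole 4 DPA-only site.

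Starch and sugar genes more often had sites higher at 4 DPA than at 7 DPA. Of 24 genes, 21 had a site and 16 a shared site, and 5 of the 16 (31.2%) had a site higher at 4 DPA (9.58% of all genes) against 2 (12.5%) higher at 7 DPA (10.7% of all genes). A 4 DPA-only site lay at 9 of the 21 (42.9%), against 19.1% of all genes, and by site the share was 16.9% against 11.4%. A 7 DPA-only site lay at 2, BAM1 and SS3 (9.52%, against 3.37% of all genes), and by site the share was 3.39% against 1.94%. Both genes are also among the 9, and a 7 DPA peak lay 10 bp from the 4 DPA-only site of BAM1 and 50 bp from that of SS3. The 4 DPA-only site of SUC5 also had a 7 DPA peak 50 bp away. The median rank change over the 24 shared sites fell by 14.6 points. SEX1, the glucan water dikinase that starts starch breakdown, had 2 sites, at 81.4, 74.5 and 7.65 in its 5-prime UTR and at 78.7, 94.2 and 51.4 at the TSS. ISA1, a starch debranching enzyme, ranked 68.5, 76.7 and 14.3 at the site printed above, and a second ISA1 site with a mean percentile of 90.2 was 4 DPA-only. PGM, the plastid phosphoglucomutase, ranked 55.1, 55.2 and 27.4, and DPE1, the disproportionating enzyme, 62.3, 65.7 and 31.2. All of these stood above the middle of both 4 DPA lists. BAM1, a beta-amylase, went the other way (3.94, 8.66 and 70.1), and SWEET15, a sugar exporter, had a site in each direction. Without the 4 DPA pool 8 genes of the list were higher at 4 DPA, with a threshold of 35 points 3 were, and with the lists at 6.8M alone 3 were higher at 4 DPA against 2 at 7 DPA.

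Over all shared sites, changes were ordered by the gap between the 7 DPA pool and the nearer of the 2 lists of 4 DPA. Toward 4 DPA the widest gap lay beside AT1G72175, an E3 ubiquitin-protein ligase gene, at the site printed above. It ranked 92.4 in the 4 DPA library, 91.2 in the pool of that stage and 7.65 at 7 DPA. TEM1, an AP2/B3 repressor of flowering, ranked 85.9, 90.5 and 2.87 at a site 621 bp upstream, and against the mean of the 4 DPA lists its change of -85.3 points was larger than the -84.2 of AT1G72175. Over the 10 sites with the widest gap in this direction, ranks ran from 79.7 to 95.2 in the 4 DPA library, from 82.0 to 94.1 in the pool of that stage and from 2.87 to 14.3 at 7 DPA. Besides those 2 genes they lay beside AT5G48860, AT3G49900, AT1G12080, ICS2 (isochorismate synthase), ERD5 (proline dehydrogenase), AT3G14240 (a subtilase), PROT2 (a proline transporter) and DEAR3 (a DREB-type factor). After TT10, the sites with the widest gap toward 7 DPA were at CYP71B29 (2.72, 3.45 and 97.8), 2 sites 73577 and 68657 bp upstream of AT5G30520, AT2G37950, SDH2-3 (a succinate dehydrogenase subunit), NRS/ER (1116 bp upstream of this rhamnose synthesis gene, at 3.59, 6.26 and 98.0), AT3G09950, EDA6 and FRO6 (a ferric reductase). In those 10 the 7 DPA ranks ran from 92.8 to 98.0, and none exceeded 6.26 in either 4 DPA list.

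Peaks that were strong at a single stage often stood next to a peak of the other stage. Of the 10 4 DPA-only sites with the highest mean percentile in the lists that held them, 7 had a 7 DPA peak within 100 bp, and of the 10 highest 7 DPA-only sites 6 had a 4 DPA peak that close. BCA4 (a carbonic anhydrase), LUL3 (a RING-type ligase) and AT3G11690 appear in both sets, each with peaks of the 2 stages at neighbouring positions. Over all stage sites the share with a peak of the other stage within 100 bp was 8.97% of the 4 DPA-only and 31.3% of the 7 DPA-only ones. TPPG, a trehalose phosphate phosphatase, had the highest 4 DPA-only site outside such pairs, at a mean percentile of 99.3 and 130 bp from a 7 DPA peak. PCL1 (a clock factor), HA11 (a proton pump), RAP2.4, AT4G35080 and BGAL2 (a beta-galactosidase) were the other genes among the 10 at 4 DPA. The site furthest from a peak of the other stage among these 20 was the 7 DPA-only one 535 bp upstream of GH3.9, an auxin-amido synthetase, with scores of 234 in the pool and 204 in the list without a mark and no 4 DPA peak within 3750 bp. NAC041, AT5G02890, AT3G18950 and CAX3 (a cation exchanger) were the other genes among the 10 at 7 DPA. At AT2G07629 in both sets and AT2G07806 at 7 DPA, every 25-base word of the site also occurs in the mitochondrial genome, so nuclear and mitochondrial reads cannot be told apart there.

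Genes with a WRKY symbol, a family known for stress and defence regulators, had a 4 DPA-only site at 16 of 51 genes with a site (31.4%, against 19.1% of all genes) and a 7 DPA-only site at 0 (3.37% of all genes). They had 2.47 sites per gene, against 1.94 over all genes, and by site 13.5% were 4 DPA-only, near the 11.4% of all sites. At 6.8M alone, 10 of the genes had a 7 DPA-only site, so the 0 rests on the 7 DPA list without a mark, and with the 4 DPA list without a mark shortened as above 3 genes had a 4 DPA-only site and 0 a 7 DPA-only one. Among shared sites 5 of 27 genes were higher at 4 DPA (18.5%, against 9.58% of all genes). At 7 DPA 3 were higher (11.1%, against 10.7%). WRKY23, at the site printed above, ranked 80.8, 68.2 and 7.65, and WRKY18 ranked 73.2, 51.6 and 14.3. WRKY60 was among those that went the other way (8.16, 19.1 and 56.7).

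Gibberellin genes had stage-only sites of both kinds. Of 15 genes 7 had a 4 DPA-only site (46.7%, against 19.1% of all genes), among them the receptors GID1A and GID1B and the DELLA repressors GAI and RGA. A 7 DPA-only site lay at GA20OX1 and GA20OX3 (13.3%, against 3.37%), which encode enzymes of gibberellin synthesis. A 4 DPA peak lay 70 bp from the GA20OX1 site and 90 bp from the GA20OX3 site. GA20OX2, also a gibberellin 20-oxidase gene, had 4 DPA-only sites 1714 and 3714 bp upstream. The list had 4.87 sites per gene, and by site 19.2% were 4 DPA-only (11.4% of all sites) and 2.74% 7 DPA-only (1.94%). At shared sites 4 of 11 genes (36.4%, against 10.7% of all genes) were higher at 7 DPA and 1 at 4 DPA (9.09%, against 9.58%). GA3OX1, which makes active gibberellin, ranked 2.48, 16.3 and 65.1, GA2OX6, which inactivates it, 0.440, 0.771 and 33.0, GA20OX1 36.3, 20.0 and 76.8, and GID1C 35.1, 40.6 and 76.0. For abscisic acid, CYP707A3, which degrades the hormone, had 2 sites higher at 4 DPA (76.8, 65 and 25.5 at its TSS). It was 1 of 12 genes with a shared site (8.33%, against 9.58% of all genes). At 7 DPA 0 of the 12 were higher, against 10.7% of all genes. None of the 4 jasmonate repressor genes with a shared site shifted.

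Epidermal and wall genes changed in both directions. Over all genes with a shared site, 10.7% had one higher at 7 DPA and 9.58% had one higher at 4 DPA. Of the class IV HD-ZIP factors of the epidermis, HDG2 (1.00, 2.49 and 50.1) and ATML1 (1.59, 38.7 and 91.7) had sites higher at 7 DPA, and ANL2 (62.3, 54.3 and 7.65) one higher at 4 DPA. ATML1 was among the sites where the 2 lists of 4 DPA also lay more than 25 points apart. ANL2, ATML1 (764 bp upstream) and PDF2 also had 4 DPA-only sites. They were 27.3% of the 11 genes with a site, against 19.1% of all genes, and by site the share was 13.9%, against 11.4%. In the cuticle and suberin list 2 of 12 genes shifted each way (16.7%). CYP86A8 and ASFT, of cutin and suberin synthesis, were higher at 7 DPA, and GPAT6 and ABCG11 were higher at 4 DPA. Of its 24 genes with a site, 7 had a 4 DPA-only one (29.2%, against 19.1% of all genes). FAR5 alone had a 7 DPA-only one (4.17%, against 3.37%). By site the 4 DPA-only share was 12.9%, against 11.4% of all sites. In the secondary wall list 0 of 4 genes with a shared site shifted, LAC4 and VND7 had 7 DPA-only sites (16.7% of 12 genes with a site, against 3.37% of all genes), and IRX9, NST2 and VND7 had 4 DPA-only sites (25%, against 19.1%). LGO, the inhibitor that promotes endoreduplication, ranked 29.3, 42.4 and 83.4, and CYCD3;1, a D-type cyclin, had a site in each direction. In the seed size list CYP78A6 was higher at 4 DPA and IKU2 at 7 DPA, and of 3 root hair genes with a shared site none shifted.

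Whole siliques also hold embryo, endosperm and fruit wall. Of 24 embryo and seed maturation genes 14 had a site and 5 a shared one. AGL15 (74.7, 79.8 and 25.5) and WRI1 (46.6, 56.0 and 7.65) were higher at 4 DPA and 0 were higher at 7 DPA. Of 13 endosperm genes, 8 had a site and 5 a shared one, with ICE1 higher at 4 DPA and IKU2 and MYB118 higher at 7 DPA. All 14 ovule and silique wall genes had a site, with 4.07 sites per gene. A 4 DPA-only site lay at 7 of them (50%, against 19.1% of all genes), and by site the share was 14%, near the 11.4% of all sites. SHP1 was higher at 4 DPA (89.9, 94.7 and 34.7) while BEL1 (27.0, 24.4 and 87.1) and SHP2 (60.3, 65.7 and 90.9) were higher at 7 DPA. Of 13 photosynthesis genes with a shared site, HEMA1 and LHCA2 were higher at 4 DPA (15.4%) and LHCB4.1 at 7 DPA (7.69%). Over all genes with a shared site, 9.58% were higher at 4 DPA and 10.7% at 7 DPA, and shares of 5 genes are coarse beside these. The part of other tissues in the seed coat values was not tested. More nuclei of a type and greater opening in the same nuclei cannot be told apart in these bulk lists.

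**Figure D3:**
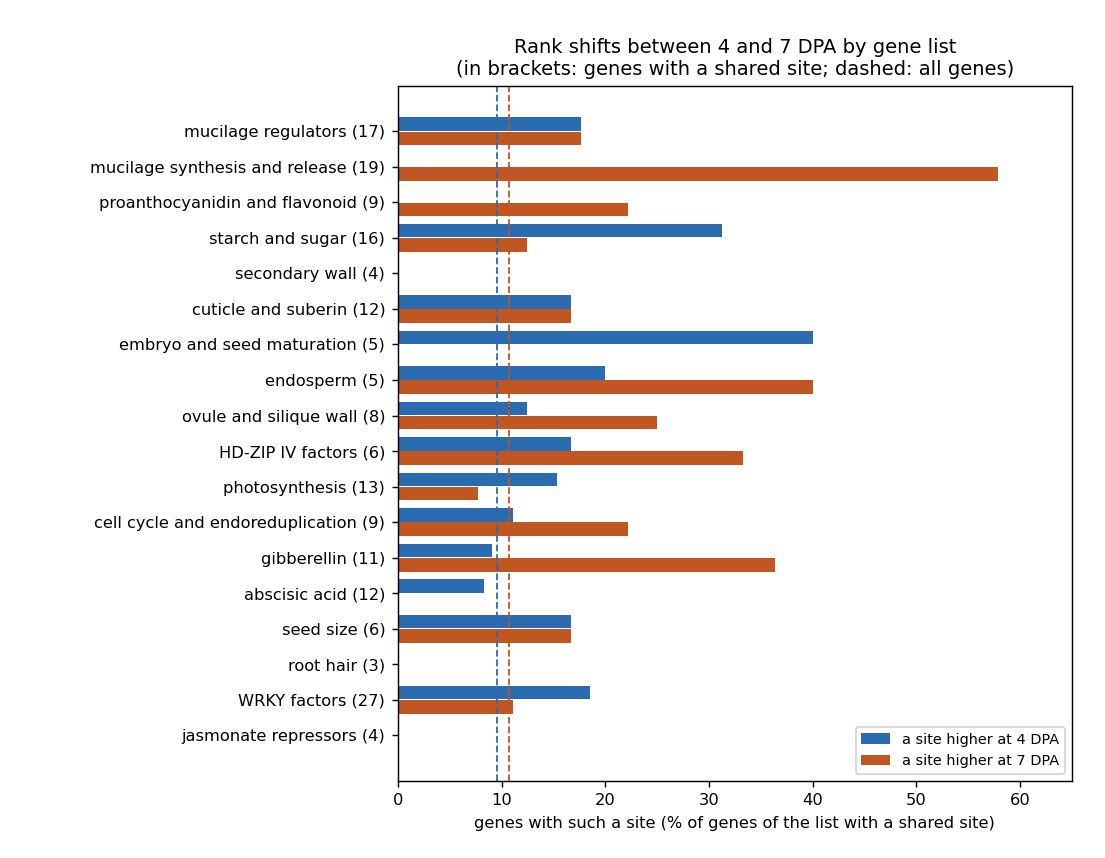
Share of genes with a site higher at 4 DPA (blue) or at 7 DPA (orange) in each of 18 gene lists, of the genes with a shared site (number in brackets), with the shares over all genes (9.58% and 10.7%) as dashed lines. Mucilage synthesis and release stands at 57.9% for 7 DPA and 0 for 4 DPA, and starch and sugar at 31.2% for 4 DPA; lists with 5 genes or fewer have coarse shares.

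Sites that shifted lay further from genes than shared sites as a whole. The median distance to the nearest protein-coding TSS was 698 bp for sites higher at 4 DPA, 744 bp for sites higher at 7 DPA and 303 bp for all shared sites. Stage-only sites were further still, at 790 bp (4 DPA) and 1004 bp (7 DPA). More than 10 kb from any TSS lay 28 of the sites higher at 7 DPA (2.71%) and 0 of those higher at 4 DPA. So did 32 of the 7 DPA-only sites (4.55%) and 4 of the 4 DPA-only sites (0.0969%). The share was 0.44% of shared sites and 0.537% of all sites. On the 5 chromosomes the classes fell in like shares, between 25.7% and 29.3% on chromosome 1 and between 22.99% and 27.1% on chromosome 5.

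Sequence composition differed between the directions, and it differed more between the 2 lists of 4 DPA. Mean GC content of the central 150 bp was 37.7% in sites higher at 4 DPA, 33.6% in sites higher at 7 DPA and 36.6% in all shared sites. Sites that the 4 DPA library ranked at least 25 points over the 4 DPA pool had 41.7% GC (746 sites), and those the pool ranked over the library 31.7% (726 sites). Between the 4 and 7 DPA pools the values were 36.3% (1460 sites higher at 4 DPA) and 35.2% (1458 higher at 7 DPA). The GC difference between stages was smaller than that between lists of one stage.

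The same held for the G-box, a site bound by bHLH and bZIP proteins. It occurred in 16.7% of sites higher at 4 DPA, 5.80% of sites higher at 7 DPA and 13.1% of shared sites. Among stage-only sites it occurred in 9.06% at 4 DPA and 1.28% at 7 DPA. Between the lists of 4 DPA the shares were 28.0% (higher in the library) and 3.44% (higher in the pool), a wider gap than between stages. With the 4 DPA library left out, the difference between sites higher at 7 and at 4 DPA shrank from -10.9 to -3.67 percentage points. In 3 bins of GC content the shares at 4 and 7 DPA were 5.42% and 2.81% in the lowest, 11.5% and 8.46% in the middle and 29.3% and 15% in the highest. The ABRE was in 13.2% of sites higher at 4 DPA and 5.80% of those higher at 7 DPA, but between the 4 and 7 DPA pools alone in 10.2% and 10.6%, and within 4 DPA in 27.6% (higher in the library) and 3.58% (higher in the pool). The TCP site II (GGNCCCAC) was in 4.26% and 0.966% by stage, in 4.11% and 1.1% between the pools and in 3.75% and 1.38% within 4 DPA. The I-box (GATAAG) was in 6.89% and 10.7% by stage, in 7.19% and 10.9% between the pools and in 12.2% and 7.71% within 4 DPA. W-box cores were at 30.1% and 31.4%, MYB cores at 30.5% and 27.5% and AC elements at 13.0% and 14.1%. The sites printed above follow the class shares only in part: WRKY23 and AT1G01260 hold 2 G-boxes each, and ISA1 holds none.

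**Figure D4:**
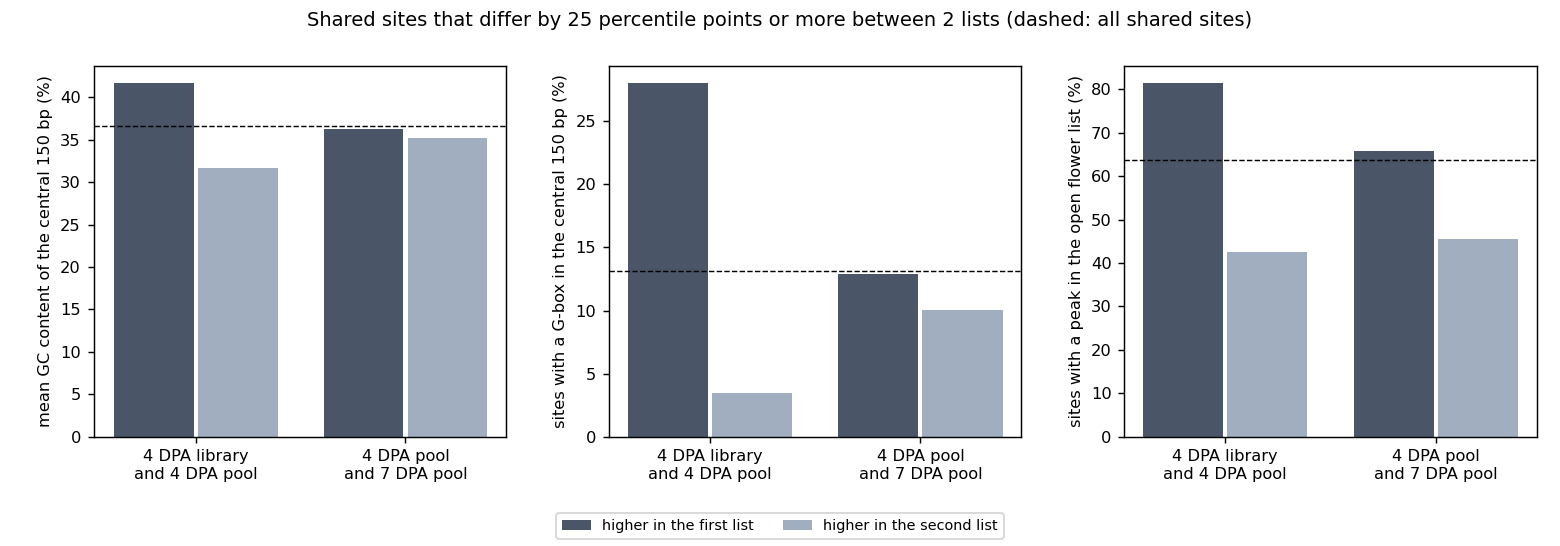
Mean GC content, share of sites with a G-box and share of sites with an open flower peak, for shared sites that differ by at least 25 percentile points between the 4 DPA library and the 4 DPA pool (left pair of bars) or between the 4 and 7 DPA pools (right pair), with all shared sites as a dashed line. In all 3 panels the left pair differs more than the right, for example 28.0% against 3.44% for the G-box within 4 DPA and 12.9% against 10.0% between stages.

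The flower and root lists were not used to define the classes. In open flowers 71.4% of sites higher at 4 DPA had a peak (95% Clopper-Pearson interval over sites 68.3% to 74.3%), against 34.8% (31.9% to 37.8%) of sites higher at 7 DPA and 63.8% of all shared sites. In unopened flowers the shares were 71.0%, 37.1% and 65.4%. Stage-only sites had a peak less often, at 14.8% and 10.4% in open and 18.5% and 12.9% in unopened flowers for 4 and 7 DPA. In the 8 root lists, from seedlings of 7 or 10 days, the share ran from 64.4% to 75.4% for sites higher at 4 DPA, from 54.9% to 61.1% for sites higher at 7 DPA, and from 72.8% to 79.3% for shared sites. The ranges of the shifted classes did not overlap in the root. Here too the lists of 4 DPA differed between themselves: in open flowers 81.4% of the sites higher in the library and 42.4% of those higher in the pool had a peak. Between the 4 and 7 DPA pools the shares were 65.7% and 45.4%. Of the 13 mucilage synthesis sites higher at 7 DPA, 5 had an open flower peak and 6 had none in any root list.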

How the data were processed

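Nuclei were captured with biotin, treated with DNase I and small double-cut fragments sequenced on Illumina instruments, per the labels' protocols. Bowtie 0.12.7 and the build TAIR10 appear in the submitters' processing notes; the peak caller is not given in the sources used here. The deposited lists give a score per peak, made by the authors, which was used only within its list; the −log10 p column that the authors deposited in the lists without a mark was not used. Lists with a mark write part of their scores with decimals (19675 of the 7 DPA pool at 6.8M) and the rest without (7361), for a reason not given in the sources used here; all such values are whole numbers and were ranked together. No read counts are given, so depth is unknown, and the mark 6.8M is not explained in the labels. Organelle peaks were left out. Peaks sharing at least 1 bp were merged (gap 0), and sites were annotated to the nearest of 27444 protein-coding TSSs (RefSeq TAIR10.1). Motifs were searched in the central 150 bp. Other depth marks, overlaps, thresholds and list lengths were tried. No p-value was computed: values are counts, ranks and shares, with 95% intervals over sites only. The comparison, the 18 gene lists, the 19 motifs and the named-gene rule (10 sites per direction, and up to 6 members per list) were chosen with earlier results of these data known. All 287 listed gene IDs matched the annotation. The steps were tested on simulated lists. Python 3.11.15, numpy 2.4.6, pandas 2.3.3, scipy 1.17.1 and matplotlib 3.10.9 were used.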

Additional observations from a re-analysis of the deposited data

Results flagged for a closer look

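In the 4 root non-hair lists, of which replicate 2 is from seedlings of 7 days and the others from seedlings of 10 days, a list lay far from the other three in each of 2 shares. The share of sites higher at 7 DPA with a peak there was 61.1% in replicate 1 and between 56.9% and 57.6% in the others, a gap of 0.837 of the whole range. The share of all shared sites with a peak was 79.3% in replicate 4 and between 76.4% and 76.9% in the others, a gap of 0.839 of the range. The critical value for 4 samples is 0.829, and chance flags about 1 in 20 groups. Several quantities of the same 4 lists were screened, and they are not independent of each other. Replicate 4 was also the longest list, with 29089 nuclear peaks against between 25953 and 26947 in the others. The number of peaks itself was not flagged (0.683).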

How the results depend on the processing

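The comparison was repeated with lists at 6.65M, 75 bp of overlap, peaks up to 100 bp apart merged, equal numbers of best peaks, the best-scoring 50% of each list, either depth set alone, a shortened 4 DPA list without a mark, either 4 DPA list left out, a shift of 15 or 35 points, whole sites for motifs, and stage sites with a near peak left out; peaks with decimal scores alone were added after seeing the data. The order of a pair of counts turned under some settings: 4 DPA-only sites outnumbered 7 DPA-only ones except with the shortened list, and sites higher at 7 DPA outnumbered those higher at 4 DPA except with the shortened list (698 against 701) and at 15 points (1714 against 1801). The 4 DPA-only count moved from 4127 to 2310 with the best 50%, 19949 in the lists without a mark alone and 662 with the shortened list. The 7 DPA-only count moved from 703 to 3524 at 6.8M alone and 1428 in the unmarked lists alone. Sites higher at 4 DPA went from 915 to 1693 in the unmarked lists alone, 1801 at 15 and 450 at 35 points. Sites higher at 7 DPA went from 1035 to 681 with the best 50%, 1752 in the unmarked lists alone, 1714 at 15 and 634 at 35 points. Leaving out a 4 DPA list gave 5032 and 6489 4 DPA-only sites, 827 and 966 7 DPA-only sites, 1409 and 1674 sites higher at 4 DPA and 1418 and 1702 higher at 7 DPA, the larger value each time without the pool. Mucilage synthesis genes higher at 7 DPA numbered between 6 and 15: 6 with the best 50%, with the shortened list or at 35 points, and 9 and 15 without a 4 DPA list. A mucilage synthesis gene was higher at 4 DPA in the unmarked lists alone (1), without the 4 DPA library (1) and at 15 points (3). The G-box difference of -10.9 points was -15.9 in the unmarked lists alone and between -3.67 and -15.9 with a 4 DPA list left out. The open flower difference of -36.6 points was -41.0 at 6.65M, -25.1 with the best 50%, -22.0 at 6.8M alone, -22.7 with the shortened list, -41.1 at 35 points, -30.2 with decimal scores and between -23.3 and -38.3 with a 4 DPA list left out. Fewer peaks or lists enter several of these settings; otherwise the cause was not tested. No paired analysis was possible because the 7 DPA side has a single list at 6.8M and the pooled lists carry no replicate number.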

Other observations

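Gene families were read from the words of the RefSeq product names, by ranking all words carried by at least 15 genes, so these were chosen after their values were seen and are descriptions. Of 13 3-ketoacyl-CoA synthase genes with a shared site, enzymes that lengthen fatty acids for waxes and suberin, 6 had a site higher at 7 DPA (46.2%) and 1 a site higher at 4 DPA, against 10.7% and 9.58% of all genes with a shared site. For O-fucosyltransferase family proteins the counts were 6 and 0 of 17, and for proteins with a pectin-related name 16 and 3 of 62. Peroxidases had 6 and 1 of 32.

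In the opposite direction, SAUR-like auxin-responsive proteins had 6 of 19 genes higher at 4 DPA and 1 at 7 DPA, AP2/ERF-type proteins 10 and 4 of 32, and leucine-rich repeat proteins 17 and 8 of 82. SQUAMOSA promoter-binding proteins, a family tied to phase change, had a 4 DPA-only site at 8 of 13 genes (61.5%) and no shifted shared site. MADS-box proteins had a 7 DPA-only site at 5 of 27 genes (18.5%) and a 4 DPA-only site at 9 (33.3%). Over all genes the shares are 19.1% for 4 DPA-only and 3.37% for 7 DPA-only sites.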
